A study of Mus musculus with 6 samples.

Results

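The genes described here encode the machinery of autophagy and mitophagy in alveolar macrophages, the phagocytes that reside in the air spaces of the lung. They are 37 genes taken from a list, grouped by role: initiation (5), the class III phosphatidylinositol 3-kinase (6), membrane supply (6), conjugation (7), the LC3 and GABARAP proteins (5), cargo receptors (5) and mitophagy (3). All 37 have a row among the 23282 rows of the count table. RNA was measured in macrophages sorted from mouse lung by flow cytometry (CD11b negative, and positive for SiglecF, F4/80, CD11c and CD45). The 3 wildtype libraries came from wildtype mice and the 3 Sdha-KO libraries from mice with floxed Sdha and LysM-Cre, which drives Cre recombinase from the Lyz2 locus and so in other myeloid cells as well. Sdha encodes the flavoprotein of succinate dehydrogenase, and the series asks what that enzyme does for the homeostasis and metabolism of these cells. The labels give no age or sex of the mice, and leave unstated how many mice went into a library, whether the wildtype mice carried floxed alleles or Cre, or which exons were floxed. P-values therefore reflect only how these libraries spread, and that spread may be technical in part. Each replicate number is also a batch number, so a number holds 1 library of each genotype.

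Autophagy encloses cytoplasm or whole organelles in a double membrane, the autophagosome, which then fuses with lysosomes. The ULK1 kinase complex starts the process, a class III phosphatidylinositol 3-kinase marks the membrane, and lipid-carrying proteins enlarge it. An enzyme chain resembling ubiquitin conjugation attaches LC3 and GABARAP proteins to the growing membrane, where cargo receptors such as SQSTM1 bind them and bring ubiquitinated cargo with them. Mitophagy is the same route applied to mitochondria, through PINK1 and Parkin or through receptors in the outer mitochondrial membrane such as FUNDC1. SQSTM1 is itself degraded by autophagy, and its gene is a known target of the antioxidant factor NRF2. Messenger RNA levels do not report how much autophagy takes place.

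Libraries held 5400160 to 8472907 counts. The libraries with replicate number 1 stood apart, with 7893 (wildtype) and 5438 (Sdha-KO) detected genes where the other 4 libraries had 11383 to 13050. The targeted gene, Sdha, had counts of 457, 295 and 567 in the wildtype libraries (here and below in the order of replicates 1 to 3) against 313, 113 and 153 in the Sdha-KO libraries. Scaled for library size and composition this was 56.0, 65.5 and 72.2 against 26.1, 21.0 and 22.8 CPM, without overlap (log2 difference -1.47, SE 0.82, edgeR adjusted p = 1.00), and a 3' tag outside the deleted part does not check the deletion. All 15 alveolar macrophage markers had counts. Of these, 10 had a negative log2 difference and 5 a positive one (33.3%, against 45% of all tested genes), with a median of -0.78 over the 15. Without overlap, 4 were lower in Sdha-KO (26.7%, against 9.27% of all tested genes) and 1 was higher (6.67%, against 5.04%). Car4 was the higher one (log2 difference 1.15, edgeR unadjusted p = 0.00285, adjusted p = 0.851). Of the 15 markers, Ear1 alone passed the test across all genes (log2 difference -2.26, edgeR adjusted p = 0.0261). Their summed level, to which Chil3 alone gave 3507 to 5424 CPM, was 8441 to 9768 CPM (counts scaled to library size and composition) in wildtype libraries and 6906 to 8801 CPM in Sdha-KO libraries, although Siglecf and Adgre1, which encode sorting antigens, had no count in Sdha-KO replicate 1. Markers of interstitial macrophages and monocytes summed to 30.4 to 50.2 CPM in wildtype libraries and 79.5 to 187 CPM in Sdha-KO libraries, and 6 of 6 tested members had a positive log2 difference. In Sdha-KO replicate 1, Ccr2 alone gave 79.0 of the 79.5 CPM, and 4 of the 6 had no count. Within replicate number 1, 2 of the 6 were higher in Sdha-KO, against 6 within number 2 and 6 within number 3. Conventional dendritic cell markers summed to 16.0 to 43.7 CPM and 44.8 to 219 CPM, and 5 of 6 tested members were positive (median 1.72), among them Ccr7 with 0, 10 and 75 counts against 60, 148 and 649. Xcr1 was the negative one, with 153, 12 and 40 counts against 2, 2 and 107. Batf3 was positive through Sdha-KO replicate 3 alone, with 10, 44 and 87 counts against 0, 0 and 175. The defining markers Flt3 and Zbtb46 were at 0 in 4 and 5 of 6 libraries, with 33 and 43 counts in Sdha-KO replicate 3. Immediate early and heat shock genes, which tissue dissociation induces, summed to 2141 to 4077 CPM in wildtype libraries and 3439 to 4908 CPM in Sdha-KO libraries.

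Among the autophagy genes, the cargo receptor gene Sqstm1 and the LC3 family gene Gabarapl1 stood higher in all 3 Sdha-KO libraries than in any wildtype library, and Map1lc3a, another LC3 family gene, stood lower. None of these differences passed the test across all genes. Of the 17 initiation, lipid kinase and membrane supply genes, 2 were higher in Sdha-KO within both replicate numbers 2 and 3, 5 were lower within both and 10 were mixed. Among all tested genes, 28.1% were higher within both and 32.3% were lower within both. Of the 37 genes, 36 passed the filter on low counts, and Park2, the gene of the ubiquitin ligase Parkin, did not. With edgeR's quasi-likelihood test and Benjamini-Hochberg adjustment over 9963 tested genes, 0 of the 36 passed at 0.05 (all adjusted p = 1.00), against 0.0502% of all tested genes. DESeq2 and limma-voom also called 0 of the 36, where they called 21 and 46 of the 9963 tested genes. At an unadjusted p under 0.05 there were 2, Sqstm1 and Gabarapl1, both higher in Sdha-KO. Of all tested genes, 2.64% had such a p, 1.36% higher and 1.28% lower in Sdha-KO.

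The log2 difference between Sdha-KO and wildtype was positive for 20 of the 36 genes, with a median of 0.09. Over all tested genes 45% were positive and the median was -0.13. Scaled by library totals alone, 25 of the 36 were positive and the median over all tested genes moved to 0.05, so the sign of small differences depends on the scaling. The genotypes did not overlap in 7 of the 36 genes, where this was so for 14.3% of all tested genes. Sdha-KO was higher in Sqstm1, Gabarapl1, Optn and Atg16l1, which is 11.1% of the 36 against 5.04% of all tested genes. It was lower in Map1lc3a, Fundc1 and Pik3c3, which is 8.33% against 9.27%. The second share lies close to that over all genes. Scaled by library totals alone, 4 genes were higher and 2 lower without overlap, where 6.44% of all tested genes were higher and 6.92% lower.

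**Figure D1:**
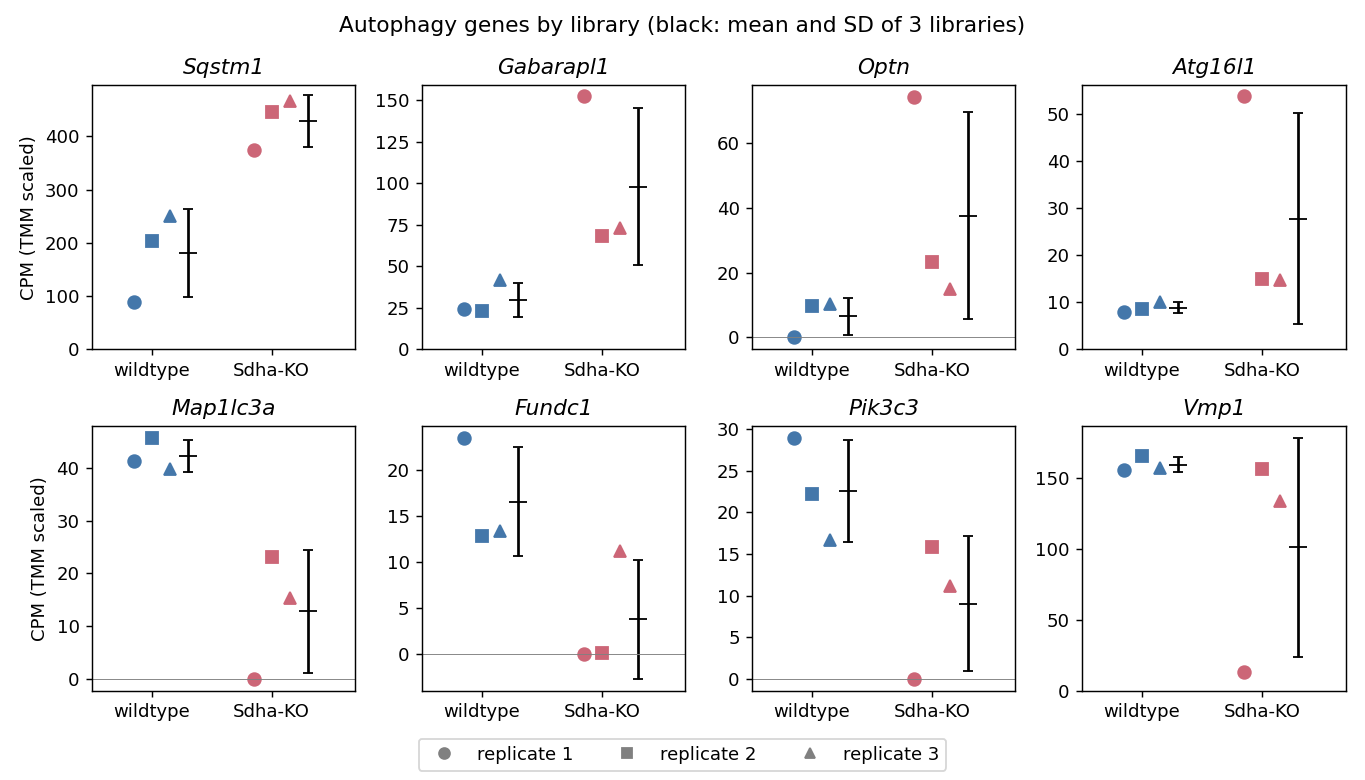
Level in CPM, scaled for library size and composition, of 8 autophagy genes in each library (points; the symbol gives the replicate number), with the mean and SD of 3 libraries in black. In the top row all Sdha-KO points lie above all wildtype points. In the bottom row all Sdha-KO points lie below, except for Vmp1, where Sdha-KO replicate 2 at 156 CPM lies within the wildtype range.

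Differences within a replicate number were taken as log2 ratios of CPM with a prior count of 2. Sdha-KO was higher in all 3 numbers for 6 of the 36 genes (Atg101, Atg16l1, Gabarapl1, Sqstm1, Optn and Tax1bp1), or 16.7% against 11.4% of all tested genes. It was lower in all 3 for 5 (Ulk2, Pik3c3, Vmp1, Map1lc3a and Fundc1), or 13.9% against 19.9%. Within numbers 2 and 3 alone, 10 genes were higher in both, 9 were lower in both and 17 were mixed, while 28.1% of all tested genes were higher in both and 32.3% were lower in both. The median difference of the 36 genes was 0.00, -0.04 and 0.04 within numbers 1, 2 and 3, and that of all tested genes was -0.11, -0.10 and -0.03. In number 1 the value of 0.00 falls on genes with no count in either library.

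**Figure D2:**
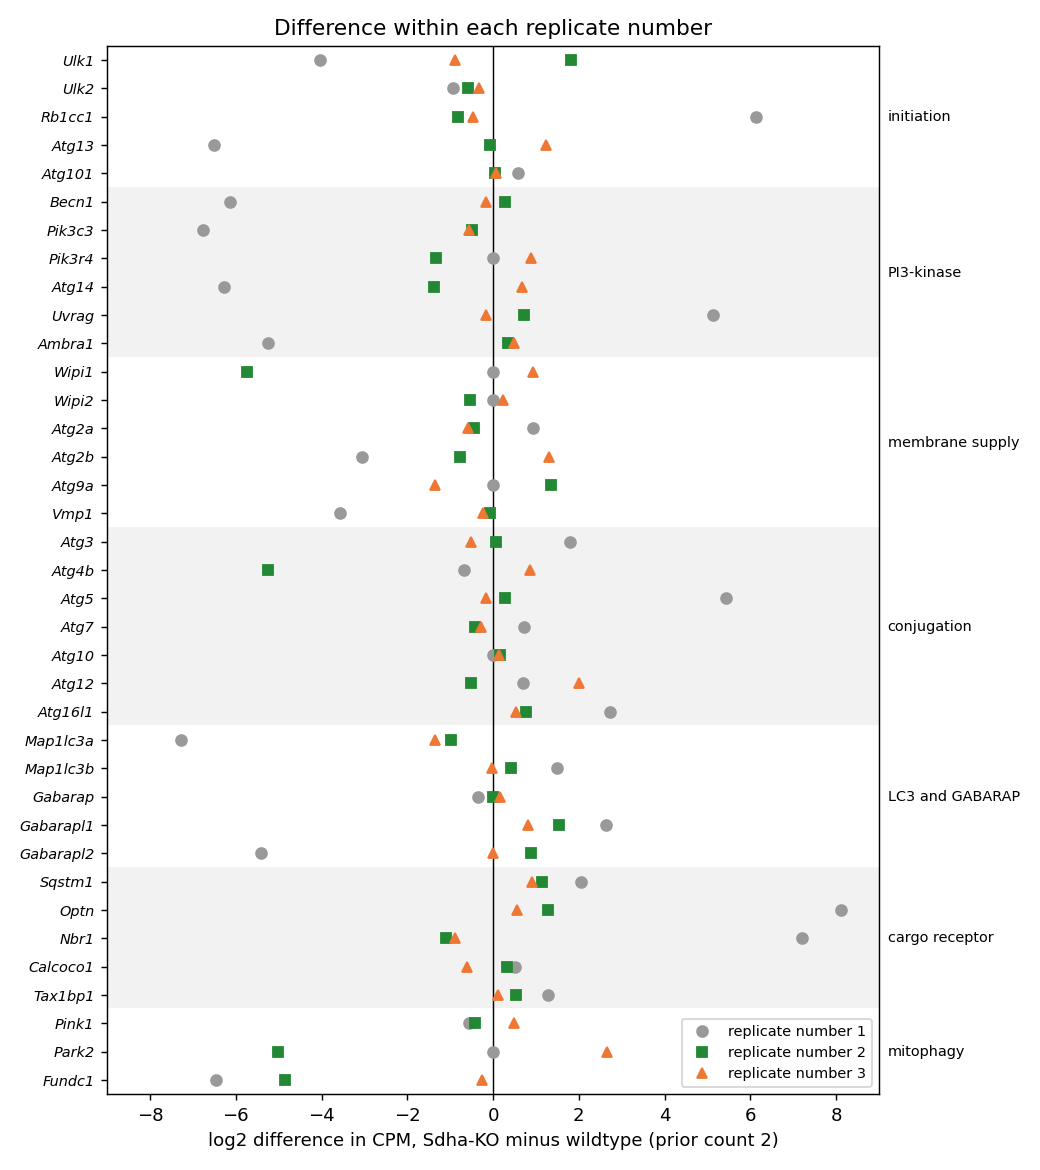
Log2 difference in CPM between Sdha-KO and wildtype within replicate numbers 1 (circles), 2 (squares) and 3 (triangles) for the 37 genes, grouped by role. Values for numbers 2 and 3 run from -5.75 (Wipi1, number 2) to 2.65 (Park2, number 3). Those for number 1 spread from -7.27 (Map1lc3a) to 8.11 (Optn).

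The spread in replicate number 1 goes with missing counts. Sdha-KO replicate 1 had no count for 16 of the 36 genes (44.4%) and wildtype replicate 1 had none for 8 (22.2%), which is near the 48.9% and 26.4% of all tested genes without a count in these libraries. Among genes that reached 50 counts in every one of the 4 other libraries, Sdha-KO replicate 1 lacked counts for 6 of 22 autophagy genes (27.3%) and 27.6% of all such genes. Where a gene had no count, up to 3 counts remain possible, or 0.25 CPM in Sdha-KO replicate 1 and at most 0.666 CPM in any library, for counting error only. Fewer cells of a type and less RNA per cell cannot be told apart in these bulk libraries.

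The promoters of the 2 genes with an unadjusted p under 0.05 are shown for reference, from RefSeq on GRCm38.p6 (mm10), 5′ to 3′ on the strand of the gene and up to the first base of any annotated transcript. Capitals mark GC boxes (GGGCGG on either strand), the binding motif of SP1.

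Sqstm1, chr11:50210828-50211070, minus strand: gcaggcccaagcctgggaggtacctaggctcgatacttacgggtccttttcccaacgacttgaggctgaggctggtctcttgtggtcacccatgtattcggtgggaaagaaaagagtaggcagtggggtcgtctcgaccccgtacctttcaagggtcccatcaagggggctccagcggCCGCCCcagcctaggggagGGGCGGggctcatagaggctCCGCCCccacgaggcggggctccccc

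Gabarapl1, chr6:129532942-129533159, plus strand: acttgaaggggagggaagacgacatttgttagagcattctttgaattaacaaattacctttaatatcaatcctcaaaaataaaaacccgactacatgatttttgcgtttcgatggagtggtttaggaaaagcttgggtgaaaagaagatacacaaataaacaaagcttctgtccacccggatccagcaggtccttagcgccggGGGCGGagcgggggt

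Over the 250 bases before the RefSeq start, Sqstm1 had 3 GC boxes, with first bases 72, 53 and 33 bases before it, and Gabarapl1 had 2, at 47 and 10. GC boxes were in 32.7% of all 32851 promoter windows and in 18 of 34 windows (52.9%) of the 30 autophagy genes with an entry. Neither window held an E-box (CACGTG), the antioxidant element TGACNNNGC, the CHOP-ATF element TGATGNAA, the hypoxia element core ACGTG, the AP-1 element TGANTCA, the FoxO element GTAAACA or a CCAAT box, on either strand (the E-box contains the hypoxia core). Of the other genes, Atg3, Atg5 and Atg7 had an E-box (3 of 34 windows, 8.82%, against 6.02% of all windows). Atg13, Tax1bp1, Ulk2 and Vmp1 had an antioxidant element (6 of 34 windows, 17.6%, against 10.2%), with several windows of Vmp1 among the 6. The hypoxia core was in 12 of 34 windows (35.3%, against 16.6%), and a CCAAT box in 7 (20.6%, against 33.8%). These matches describe the letters only, and bases farther from the start and other forms of each element were not searched.

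Cargo receptors bind ubiquitinated cargo at one end and LC3 or GABARAP at the other. Sqstm1 (chromosome 11, 50199366 to 50210827, mm10, minus strand), whose product gathers ubiquitinated proteins into condensates, had counts of 730, 915 and 1962 in wildtype against 4483, 2395 and 3131 in Sdha-KO libraries. This is 89.5, 203 and 250 CPM against 374, 445 and 467 CPM. The lowest Sdha-KO library lay well above the highest wildtype library, and in each replicate number the Sdha-KO library had the higher level, by 2.06, 1.13 and 0.90 on the log2 scale. Mean levels were 181 ± 82.5 CPM in wildtype libraries and 429 ± 48.5 CPM in Sdha-KO libraries (SD, n = 3 each), a fitted ratio of 2.37 (log2 difference 1.25, SE 0.40; edgeR unadjusted p = 0.00898, adjusted p = 1.00). In 17 alternative settings the log2 difference ranged from 0.92 to 1.55 and the unadjusted p from 4.72e-05 to 0.0333. The adjusted p ranged from 0.00397 to 1.00, and it was under 0.05 in 1 setting: without both replicate number 1 libraries and with a block for the number, which leaves 1 residual degree of freedom (log2 difference 1.03). Of 10757 tested genes, 324 passed in that setting. Without the block those 4 libraries gave an adjusted p of 0.191.

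In those 4 libraries genotype went along with the mix of sexes: counts of Xist were 4608 and 6055 (wildtype) against 498 and 822 (Sdha-KO), while those of Ddx3y, a Y-linked gene, were 0 and 143 against 354 and 432. Genotype and sex cannot be told apart there. Within replicate number 1 the sexes ran the other way, with Xist at 0 in wildtype and 2683 in Sdha-KO and Ddx3y at 222 and 0 counts. Sqstm1 was higher in Sdha-KO there by 2.06 on the log2 scale, with 1 library of each genotype. The part of sex in the Sqstm1 result was not tested. With all libraries, 9 of the 10 dissociation genes also had a positive log2 difference (median 0.82), Fos being the exception at -0.49. Of the 10, Junb alone did not overlap between genotypes. The part of these genes in the Sqstm1 result was not tested. Exons of Sqstm1 overlap those of Mrnip on the other strand, whose row (under its older symbol, 3010026O09Rik) held at most 34 counts in any library.

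Sqstm1 was the most counted of the 37 genes in 5 of 6 libraries, and in wildtype replicate 1 it came after Gabarap, Vmp1 and Calcoco1. A 3' kit gives about 1 read position per transcript, so counts of different genes are compared here without a correction for length. Tax1bp1, a receptor that also limits inflammatory signalling, had 34.1, 182 and 179 CPM in wildtype libraries and 83.8, 262 and 193 CPM in Sdha-KO libraries. It was higher in Sdha-KO within each number, but the genotypes overlapped (log2 difference 0.45, SE 0.61). Optn, the optineurin gene, whose product recognises damaged mitochondria and bacteria, had 0, 9.54 and 10.2 CPM in wildtype libraries and 74.3, 23.4 and 15.1 CPM in Sdha-KO libraries. All 3 Sdha-KO values were above the wildtype ones, and the fitted log2 difference of 2.51 (SE 1.92, edgeR unadjusted p = 0.215) rests largely on replicate number 1, since it was 0.97 without that number. Exons of Optn overlap 4930551O13Rik on the other strand.

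The remaining receptors had no steady direction. Nbr1, an SQSTM1 relative, had 0, 15.3 and 11.3 CPM in wildtype libraries and 39.5, 7.07 and 5.96 CPM in Sdha-KO libraries, so it was higher within number 1 and lower within numbers 2 and 3. Calcoco1, which serves as a receptor for endoplasmic reticulum, had 137, 18.2 and 57.3 CPM against 195, 22.7 and 37.7 CPM and varied more between numbers than between genotypes. The log2 difference was positive for 5 of 5 receptors with 6 libraries (median 0.98) and for 3 of 5 without the replicate number 1 libraries (median 0.35) or with limma-voom (median 0.34).

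Summed over the 5 receptors, the level was 261, 428 and 508 CPM in wildtype libraries and 766, 760 and 719 CPM in Sdha-KO libraries. The genotypes did not overlap in this sum, also when scaled by library totals alone (258 to 496 CPM against 663 to 1084 CPM). Without Sqstm1 they did, with 171, 225 and 258 CPM in wildtype libraries and 392, 315 and 252 CPM in Sdha-KO libraries. The same held for all 37 genes, which summed to 1061 to 1551 CPM in wildtype libraries and 1654 to 1860 CPM in Sdha-KO libraries, and without Sqstm1 to 972 to 1348 CPM and 1260 to 1415 CPM.

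The LC3 and GABARAP genes encode small ubiquitin-like proteins that are joined to lipid in the autophagosome membrane. Gabarapl1 (chromosome 6, 129533160 to 129542346, plus strand) had 198, 105 and 326 counts in wildtype and 1827, 368 and 490 counts in Sdha-KO libraries, or 24.3, 23.3 and 41.5 CPM against 152, 68.4 and 73.0 CPM. Every Sdha-KO library lay above the wildtype libraries, with replicate 1 the highest. The means were 29.7 ± 10.2 and 98.0 ± 47.2 CPM (SD, n = 3 each), a fitted ratio of 3.30 (log2 difference 1.72, SE 0.66; edgeR unadjusted p = 0.0219, adjusted p = 1.00). The unadjusted p was under 0.05 in 16 of 17 alternative settings and 0.0819 without wildtype replicate 2, while the adjusted p was between 0.141 and 1.00. Without the replicate number 1 libraries the log2 difference was 1.13. Exons of Gabarapl1 overlap 1700101I11Rik on the other strand, which held 118 counts in wildtype replicate 1 and at most 4 elsewhere.

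Map1lc3a (chromosome 2, 155276297 to 155278073, plus strand), the LC3A gene, had 337, 206 and 313 counts in wildtype and 0, 124 and 103 counts in Sdha-KO libraries. In CPM this was 41.3, 45.7 and 39.9 against 0, 23.1 and 15.4. The wildtype values were close together and all Sdha-KO values were lower, by 0.98 within number 2 and by 1.36 within number 3 on the log2 scale. The fitted log2 difference was -1.72 (SE 1.73, edgeR unadjusted p = 0.338). Without the replicate number 1 libraries it was -1.14 (SE 0.45, edgeR unadjusted p = 0.0372, adjusted p = 0.466). In that fit 1099 of 10757 tested genes had an unadjusted p under 0.05, beside 3 of the 37 autophagy genes. Genotype and sex cannot be told apart in those 4 libraries. No exon of another gene overlaps Map1lc3a in the annotation.

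The other family members were more alike between genotypes. Map1lc3b, the LC3B gene and the usual marker of autophagosomes, had 52.1, 69.0 and 73.3 CPM in wildtype libraries and 146, 92.1 and 71.5 CPM in Sdha-KO libraries (log2 difference 0.67, SE 0.52). Its values overlapped, and the difference within number 3 was -0.04 on the log2 scale. Its 3' end shares repeated sequence with 66 other annotated genes, so its count is uncertain. Gabarap, the most counted member of the family, had 290, 167 and 154 CPM against 229, 168 and 173 CPM (log2 difference -0.10, SE 0.39). The sign for Gabarap differed between replicate numbers, with -0.34 in number 1 and 0.01 and 0.16 in numbers 2 and 3. Gabarapl2 had 11.2, 16.0 and 21.9 CPM against 0, 29.9 and 21.9 CPM (log2 difference 0.08, SE 2.02).

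The make-up of the family within each library does not depend on how libraries are scaled to each other. Gabarapl1 gave 5.79%, 7.25% and 12.5% of the counts of the 5 genes in wildtype and 28.9%, 17.9% and 20.6% in Sdha-KO libraries. Map1lc3a gave 9.86%, 14.2% and 12.0% in wildtype libraries and 0%, 6.04% and 4.33% in Sdha-KO libraries. The genotypes did not overlap for either share. Gabarapl1 thus had 0.588, 0.51 and 1.04 counts per Map1lc3a count in wildtype against 2.97 and 4.76 in Sdha-KO replicates 2 and 3. Sdha-KO replicate 1 had no Map1lc3a count, and the exact 95% interval of the Map1lc3a share there ends at 0.0583%. Gabarap gave 46.7% to 69.3% in wildtype and 43.4% to 48.7% in Sdha-KO libraries, with overlap. These shares rest on 1448 to 6321 counts per library, and their exact (Clopper-Pearson) 95% intervals reach at most 2.61 percentage points from the value, for counting error only.

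**Figure D3:**
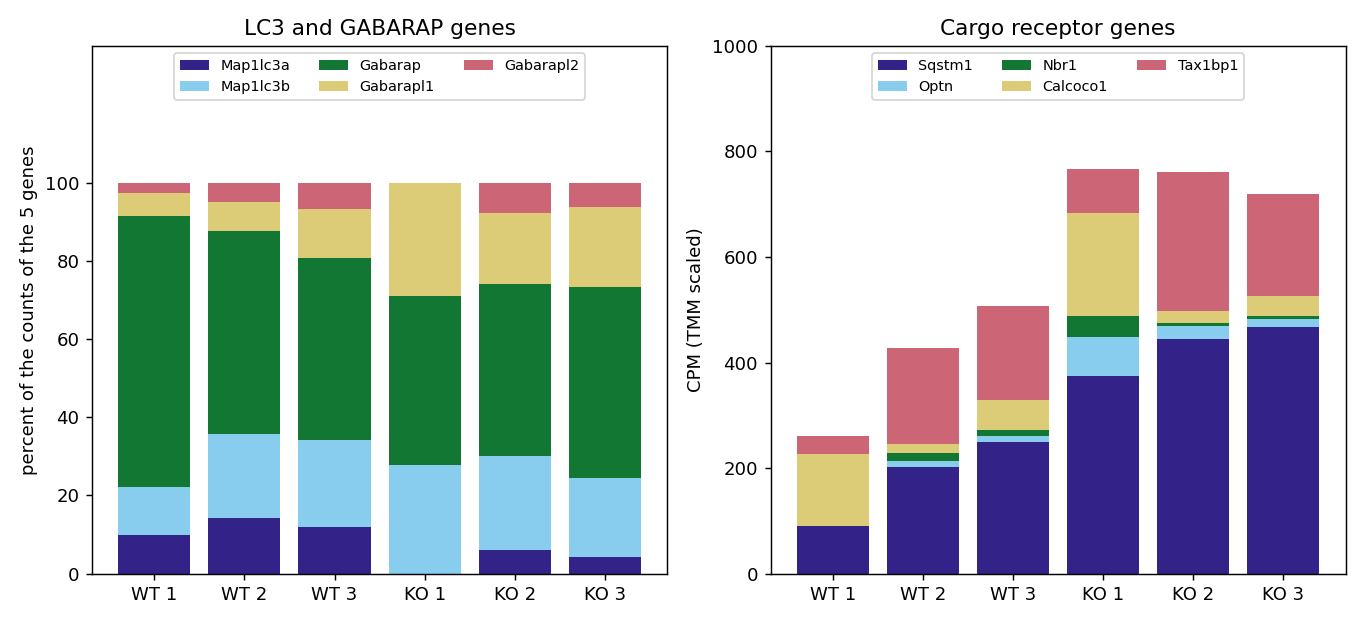
Left, percent of the summed counts of the 5 LC3 and GABARAP genes given by each gene in each library (WT, wildtype; KO, Sdha-KO; numbers are replicates). Right, stacked CPM of the 5 cargo receptor genes. The Gabarapl1 share is 17.9% or more in Sdha-KO and at most 12.5% in wildtype libraries, and the receptor stack is at least 719 CPM in Sdha-KO and at most 508 CPM in wildtype libraries.

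Initiation genes encode the ULK kinase complex, which receives signals from mTORC1 and AMPK. Of the 5, the log2 difference was positive for 2 and the genotypes overlapped in all 5. Rb1cc1, the scaffold FIP200, had 0, 99.6 and 67.7 CPM in wildtype libraries and 18.5, 56.3 and 49.2 CPM in Sdha-KO libraries, so it was lower in Sdha-KO within numbers 2 and 3 (by 0.82 and by 0.46 on the log2 scale) and was not detected in wildtype replicate 1. Exons of Rb1cc1 overlap 4732440D04Rik. Atg101, a subunit that stabilises ATG13, was the steadiest, with 90, 88 and 130 counts against 200, 109 and 117. The kinase gene Ulk1 had 4.17, 7.32 and 9.55 CPM against 0, 26.4 and 5.07 CPM, and its relative Ulk2 had 0.245, 33.3 and 21.1 CPM against 0, 21.9 and 16.7 CPM. Atg13 had 24.3, 10.4 and 4.07 CPM against 0, 9.86 and 9.99 CPM. SEs of the log2 differences in this group were 1.60 to 2.27, larger than any of the fitted differences, which ran from -0.97 to 0.58.

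The class III kinase phosphorylates phosphatidylinositol at the site where the autophagosome forms. Its catalytic subunit gene Pik3c3 had 28.9, 22.2 and 16.7 CPM in wildtype libraries and 0, 15.8 and 11.2 CPM in Sdha-KO libraries, without overlap (log2 difference -1.33, SE 2.04). Without the replicate number 1 libraries the log2 difference was -0.51. Becn1, the Beclin 1 gene, had 18.6, 45.3 and 36.5 CPM against 0, 54.9 and 32.6 CPM, and its exons overlap Cntd1. The Cntd1 row held 146, 119 and 161 counts in wildtype and 0, 118 and 219 in Sdha-KO libraries, beside 152, 204 and 287 and 0, 295 and 219 for Becn1. If the counting did not use strand, reads of the pair cannot be told apart. Becn1 was higher in Sdha-KO within number 2 and lower within number 3. Uvrag, which directs the kinase to late endosomes, had 0.613, 16.6 and 16.4 CPM against 30.4, 27.7 and 14.6 CPM. Log2 differences of Pik3r4, Atg14 and Ambra1, which encode the regulatory subunit, the autophagy-specific adaptor and a Beclin 1 partner, were -0.03, -1.24 and -0.07, with SEs of 2.15 to 2.50. Sdha-KO replicate 1 had no count for 5 of the 6 genes of this group.

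Membrane supply genes encode lipid-binding, lipid-transferring and lipid-scrambling proteins. Vmp1, a scramblase of the endoplasmic reticulum, had 155, 165 and 157 CPM in wildtype libraries and 12.9, 156 and 134 CPM in Sdha-KO libraries. Wildtype libraries were almost equal, and the difference was -3.56 within number 1 but -0.08 and -0.23 within numbers 2 and 3. The Vmp1 row includes the exon that holds Mir21a. The lipid transfer gene Atg2a had 14.8, 25.1 and 32.8 CPM against 28.3, 18.2 and 21.8 CPM. Atg2b, Atg9a, Wipi1 and Wipi2 were at or below 35.7 CPM in every library, and for Wipi1, Wipi2 and Atg9a neither replicate 1 library had a count. Exons of Atg2b overlap Gskip, and those of Atg9a overlap Ankzf1 and Gm29253.

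Conjugation genes encode the enzymes that join ATG12 to ATG5 and LC3 to lipid. Atg16l1, the subunit that places the conjugate on the membrane, had 7.84, 8.65 and 10.1 CPM in wildtype libraries and 53.7, 14.9 and 14.8 CPM in Sdha-KO libraries. Sdha-KO lay above wildtype in every library, by 2.74, 0.76 and 0.54 on the log2 scale within numbers 1 to 3 (fitted 1.65, SE 1.64, edgeR unadjusted p = 0.335). Without number 1 the fitted log2 difference was 0.67. Atg5 had 1.96, 76.1 and 67.9 CPM against 96.2, 91.9 and 60.8 CPM, so its difference is large only within number 1, where wildtype replicate 1 had 16 counts. Atg7, the activating enzyme for ATG12 and LC3, had 25.1, 66.8 and 76.5 CPM against 41.6, 49.8 and 63.2 CPM. Its log2 difference was -0.12 (SE 0.72), with overlap. Log2 differences of the LC3-conjugating enzyme Atg3, the protease Atg4b, Atg10 and Atg12 were 0.59, -0.31, 0.15 and 0.54 (SEs 1.34 to 2.54).

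Mitophagy genes were sparsely counted. Fundc1 (X chromosome, 17556564 to 17572325, minus strand), an outer membrane receptor for mitophagy under low oxygen, had 191, 58 and 105 counts in wildtype and 0, 1 and 75 counts in Sdha-KO libraries, or 23.4, 12.9 and 13.4 CPM against 0, 0.186 and 11.2 CPM. Sdha-KO was lower in each number, but Sdha-KO replicate 3 was only 0.25 lower on the log2 scale than its wildtype partner, so the fitted log2 difference of -2.12 (SE 2.36, edgeR unadjusted p = 0.386) depends on which libraries are used. It was -7.39 without Sdha-KO replicate 3, -1.54 without Sdha-KO replicate 1, -1.19 without both replicate number 1 libraries and -5.53 with the replicate block. Pink1, the kinase gene that marks damaged mitochondria, had 28, 61 and 136 counts against 27, 54 and 165, a log2 difference of 0.11 (SE 1.89). Park2 had 0, 38 and 4 counts in wildtype and 0, 0 and 31 counts in Sdha-KO libraries, and was not tested.

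A further 70 genes of the pathway were examined in the same fit, of which 67 had a row and 62 were tested. None passed over all genes (edgeR, Benjamini-Hochberg adjusted p under 0.05), 26 had a positive log2 difference, and 1 had an unadjusted p under 0.05. That gene was Usp30, a mitochondrial deubiquitinase that opposes Parkin. Counts of Usp30 were 49, 27 and 42 in the wildtype and 0 in each Sdha-KO library (edgeR unadjusted p = 0.0218, adjusted p = 1.00). Against a floor of 3 counts per library this is at least 13.8-fold lower, for counting error of the zeros only. The genotypes did not overlap in 5 genes with Sdha-KO higher (8.06% of 62, against 5.04% of all tested genes) and in 9 with Sdha-KO lower (14.5% against 9.27%).

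The 5 higher genes were Rab7, Bcl2l1, Bcl2l13, Tomm20 and Pgam5. Rab7, the GTPase of late endosomes and lysosomes, had 103, 81.2 and 90.1 CPM in wildtype libraries and 130, 180 and 171 CPM in Sdha-KO libraries, with little spread within a genotype (log2 difference 0.81, SE 0.41, edgeR unadjusted p = 0.0731). Tomm20, a subunit of the mitochondrial import channel, had 32, 68 and 107 counts against 251, 221 and 163. Bcl2l1, an apoptosis inhibitor that binds Beclin 1, the mitophagy receptor gene Bcl2l13 and the mitochondrial phosphatase gene Pgam5 had no count in wildtype replicate 1 and their highest level in Sdha-KO replicate 1. The 9 lower genes were Usp30, Wdr45b, Usp8, Tfe3, Plekhm1, Vps39, Mtor, Akt1s1 and Ccpg1. Mtor, the kinase that holds initiation in check, had 236, 67 and 65 counts in wildtype and 0, 43 and 37 in Sdha-KO libraries. Akt1s1, another gene of its complex, had 111, 31 and 60 counts against 0, 0 and 22. Ccpg1, a receptor for autophagy of the endoplasmic reticulum, had 661, 392 and 473 counts against 639, 107 and 189 (log2 difference -1.17, SE 0.71). Of the 9, 5 had no count in Sdha-KO replicate 1, the library that lacked counts for 48.9% of all tested genes.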

How the data were processed

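The authors deposited a table of raw counts, a row for each gene symbol and a column for each library, from QuantSeq 3' libraries per the labels' protocols. The submitters' processing notes name Bowtie2, bedtools and the mm10 build. Strand use, annotation, versions and the handling of reads with several matches are not given in the sources used, so counts of overlapping genes (13 of the 37 by GENCODE M21 exons) are uncertain. Counts were tested as deposited with edgeR 4.0.16 in R 4.3.3 (genotype as the only term, robust quasi-likelihood F-tests, TMM scaling, filterByExpr at its minimum count of 10, Benjamini-Hochberg threshold 0.05). The procedure was tested on simulated data, and a pass was required only at a spread below that of these data. CPM are scaled by TMM factors, and SEs are the log2 difference divided by the square root of F. The biological coefficient of variation was 1.40, and 0.677 without the replicate number 1 libraries. Similar 3' ends were sought with blastn 2.17.0 over the last 400 bases (95% identity over 75 bases).

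Replicate numbers pair the libraries, since the labels repeat them as batches. Across tested genes, deviations from group means correlated at 0.155, 0.117 and 0.126 within a number and from -0.152 to 0.111 between numbers. Members, lists and settings were chosen with earlier results of these data known. Values by library are given for genes whose genotypes do not overlap, with an unadjusted p under 0.05 or among the 10 most abundant, and for other members in brief. Alternatives were DESeq2 1.42.0, limma-voom with quality weights (limma 3.58.1), RLE factors, library totals, a stricter filter or none, the replicate block, leaving out libraries or 3 abundant rows, and summing repeated symbols.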

Additional observations from a re-analysis of the deposited data

How the results depend on the processing

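No autophagy gene passed an adjusted p of 0.05 in 16 of the 17 alternative settings, and 1 (Sqstm1) passed without both replicate number 1 libraries and with the replicate block. In that setting 324 of 10757 tested genes passed, beside 1 of the 37 autophagy genes. The replicate block with all 6 libraries gave 0 autophagy genes past the threshold and 2 at an unadjusted p under 0.05, and it changed no call. Of the 9963 tested genes it gave 0 and 296. Sqstm1 and Gabarapl1 had an unadjusted p under 0.05 in every setting, except that Gabarapl1 did not without wildtype replicate 2, so the count when 1 library was left out was 1 to 2. The 7 genes without overlap kept the sign of their log2 difference in all settings run. They were chosen by that separation, which leaving out libraries keeps unless the scaling shifts, so those settings do not test their sign. The median log2 difference of the tested genes was 0.09. It was 0.23 with library totals alone, 0.19 with the stricter filter, 0.029 with limma-voom and -0.054 with the replicate block, and from -0.21 to 0.34 when 1 library was left out. The median over all tested genes moved as well: it was -0.13 as reported, 0.05 with library totals, -0.48 with the replicate block and from -0.38 to 0.06 when 1 library was left out, below that of the autophagy genes in every setting run. The cause was not tested. Precision was limited, with SEs of the log2 difference up to 2.90 (Wipi1, which had no count in 3 libraries). Without the replicate number 1 libraries the SE of Wipi1 was 2.01.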
